A study of Mus musculus with 3 samples.

Results

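The ligands and receptors of axon guidance were examined in astrocytes of the mouse cortex. Members were all rows of the expression table whose gene symbol begins as an ephrin, an Eph receptor, a semaphorin, a plexin, a neuropilin, a Slit, a Robo, a netrin, an Unc5 receptor or Dcc, a rule that uses names and no measured value. It found 67 members among 19471 rows, of which 66 were protein-coding genes and the last was Plxna4os1, an antisense RNA that the rule takes in through its symbol. The GENCODE annotation holds 72 genes that fit the rule, and Epha8, Ntn3, Ntn5 and the antisense RNAs Plxna4os2 and Plxna4os3 had no row in the expression table. Shares of members below are over those with a row.

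The series is about the histone variant H2BE in the brain. All libraries belong to 1 group, wild-type (WT) astrocytes taken from the cortex of pups on postnatal day 1 and grown for 7 days, with no other allele, agent or age named. The descriptions of all 3 samples also carry the tag Ctrl. The titles give day 1, which was followed, while the descriptions of the samples name day 0. Each of the 3 biological replicates comes from a different numbered pup (5, 6 and 8), so pup, culture and library cannot be told apart. No contrast between conditions could be made, and members were compared with other genes of the same library, with each other, and between the libraries.

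The libraries held 14380993, 25128038 and 9858626 reads for replicates 1, 2 and 3. The labelled cell type was checked against its markers: all 12 astrocyte markers reached a mean normalized count of 10, and Gfap, an astrocyte intermediate filament gene, was the highest of them at 12395 per kilobase. Of the 12, 10 lay above the median gene, S100b lay below it (-0.65, log2) and Slc1a2 had no call. Markers of other cells were present too. All 10 microglial markers lay above the median gene, and Foxj1, the regulator of motile cilia, led the ependymal list at 3799.6 per kilobase. That list was split: of 7 ependymal markers 4 lay above the median gene, Tmem212 and Dnah11 lay below it, and Cfap44 had no call. Of the other lists, 6 of 7 oligodendrocyte precursor, 4 of 7 oligodendrocyte and 6 of 10 neuronal markers reached 10. So did 4 of 7 endothelial, 4 of 7 mural and 6 of 9 fibroblast and meningeal markers, against 71.6% of all rows. In the same order of lists, 2, 1, 2, 1, 1 and 4 markers lay above the median gene and 4, 3, 3, 2, 2 and 2 below. The highest of each were Olig1 (2727 per kilobase), Cnp (1476), Map2 (156), Slco1a4 (264), Pdgfrb (164) and Islr (1002). No marker was at 0 in all libraries. In a bulk sample fewer cells of a type and less RNA per cell cannot be told apart, so each level below is that of the culture as a whole, and the part of these other cells in it was not tested.

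Growing axons steer by a few families of paired ligands and receptors. Ephrins are held on the cell surface and bind Eph receptor tyrosine kinases on a neighbouring cell, with signals running both ways; semaphorins act through plexins, with neuropilins as the binding partner for most secreted forms; Slits act through Robo receptors; and netrins act through Dcc, mostly as attraction, and through Unc5 receptors as repulsion. Astrocytes and their precursors make several of these proteins, and the same systems also guide blood vessels, neuroblasts and glial processes.

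The plexins, the receptors for semaphorins, held the member with the highest level of all, Plxnb2. The RefSeq sequence around the start of the highest and the lowest plexin is shown so that both can be read beside their levels. Each window runs from 250 bases before the start to 50 after it, on GRCm38.p6, at chr15:89180739-89181038 on the minus strand for Plxnb2 and at chrX:73756853-73757152 on the plus strand for Plxnb3. Capitals mark GGGCGG, the core of a GC box, or its reverse complement CCGCCC.
Plxnb2: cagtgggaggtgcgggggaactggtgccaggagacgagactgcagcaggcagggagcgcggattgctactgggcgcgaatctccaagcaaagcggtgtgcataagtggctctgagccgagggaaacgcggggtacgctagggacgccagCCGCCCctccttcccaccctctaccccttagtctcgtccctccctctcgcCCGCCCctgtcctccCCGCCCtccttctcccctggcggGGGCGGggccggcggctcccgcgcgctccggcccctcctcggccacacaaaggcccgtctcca
Plxnb3: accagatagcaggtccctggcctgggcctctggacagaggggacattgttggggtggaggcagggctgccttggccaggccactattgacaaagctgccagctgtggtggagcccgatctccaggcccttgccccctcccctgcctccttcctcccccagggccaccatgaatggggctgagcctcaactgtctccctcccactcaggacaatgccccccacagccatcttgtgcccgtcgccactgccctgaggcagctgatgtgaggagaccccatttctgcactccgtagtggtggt

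The window shown for Plxnb2, the one nearest its annotated start, holds 4 copies of the motif and 27 CpG dinucleotides, and the Plxnb3 window holds no copy and 4 CpGs. A second Plxnb2 window, at chr15:89173902-89174201, holds 3 copies and 15 CpGs. For the members as a whole, 56 matched a RefSeq entry with 72 windows, and 51 of these windows (70.8%) held the motif on either strand, against 35.7% of the 32851 windows of all genes. The ratio of observed to expected CpGs had a median of 0.66 in member windows and 0.38 in all windows. Neither background value was taken over expressed or protein-coding genes alone, so a trait particular to the members cannot be read from them. Windows of low members held the motif too: of 10 windows of members with a mean under 10, 7 held it, and Epha10, the lowest member at a mean normalized count of 0.428, has 2 copies in its window. Sema4d, at a mean of 751, has 3 windows with a ratio between 0.10 and 0.15. These features were chosen after the levels were seen and carry no test.

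Levels are the deposited normalized read counts, which are scaled for library depth and not for gene length. Of the 67 members, 58 (86.6%) had a mean of 10 or more, against 71.6% of all rows, and 41 (61.2%) had a mean of 100 or more, against 54.3%. The 9 members under 10 were the ephrin Efna3, the Eph receptors Epha1 and Epha10, the semaphorins Sema3g, Sema4f and Sema6c, the receptors Robo3 and Robo4, and the netrin receptor Dcc. Sema6c lay just under the limit, with normalized counts of 13.8, 6.60 and 9.57 in replicates 1, 2 and 3, and Epha6 lay just above it at a mean of 11.2. Robo3 had no read in replicate 2, which allows up to 3 reads or a normalized count of 1.42, and Epha10 had none in replicate 3, which allows up to 3.59. Reads without molecular identifiers are not independent molecules, and these limits cover counting error only.

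To set genes of different length side by side, normalized counts were divided by the kilobases of annotated exon, and each gene was placed against the median expressed gene of its own library, at 71.0, 72.1 and 72.0 per kilobase. Of the 58 members with a mean of 10 or more, 16 (27.6%) were called above the median gene and 35 (60.3%) under it (limma over 13897 genes, threshold of 0.05 on the adjusted p), against 45.5% and 44.9% of all genes tested. The members' median was -0.59 on the log2 scale, against -0.01 over all genes. Their exons were long, with a median of 7110 bases against 4471. Without division by length, 24 of the same 58 members lay above the median gene and 29 below. The median gene itself moves with the genes that define it. With genes of a mean of 1 or more, 26 of 66 members lay above it and 33 below. With a mean of 100 or more, 12 of 41 lay above and 25 below. The calls of Ephb2, Nrp1, Ephb4 and Sema4d then ended, the last 2 with negative values. Shares over all genes were taken for the main setting only, so the counts under other settings cannot be set beside other genes. Most of the genes tested are called in this test. The plot of levels by family shows each member in each library.

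**Figure D1:**
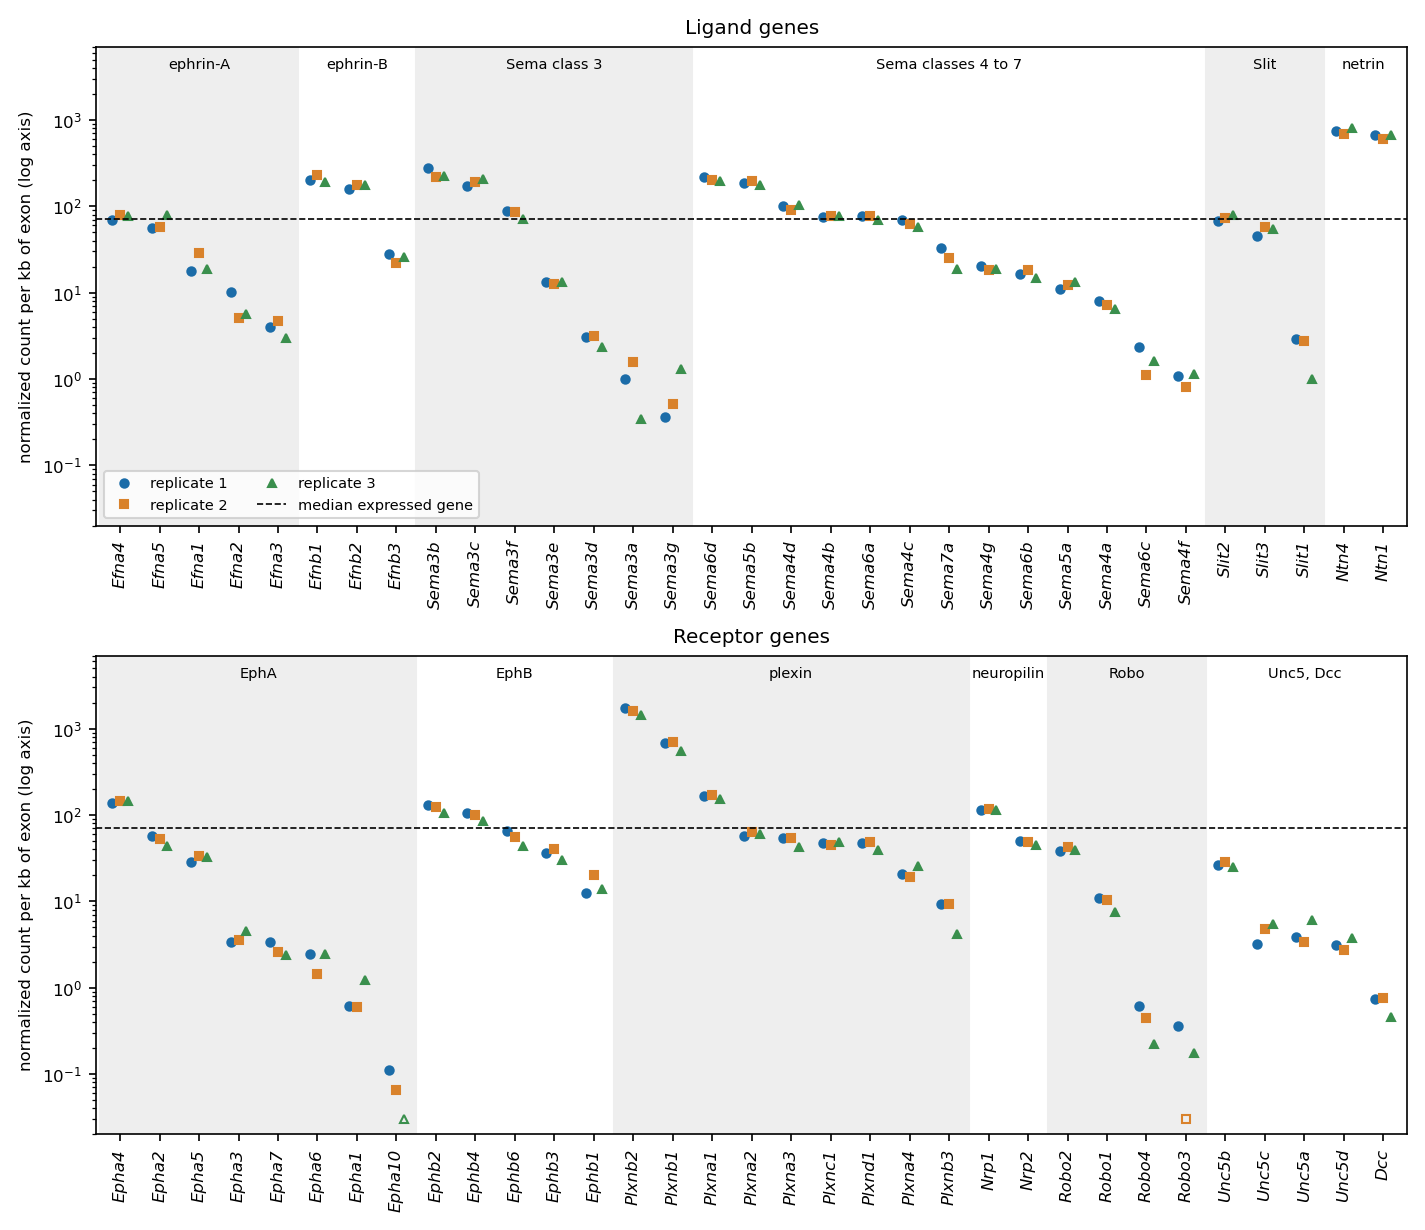
Normalized count per kilobase of exon (vertical log axis) for the 66 protein-coding members, grouped by family, with 1 symbol per replicate and the dashed line at the median expressed gene. Open symbols at the lower edge are libraries with 0 reads (Epha10 in replicate 3, Robo3 in replicate 2); Plxnb2 stands highest, and within most families 1 or 2 members lie far above the rest.

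The netrins were the most abundant ligands. Ntn4, a netrin of basement membranes that binds laminin, had normalized counts of 2759, 2605 and 3050 in replicates 1, 2 and 3 (chr10:93640681-93747207, plus strand). Ntn1, the founding secreted guidance cue of the family, had 4168, 3795 and 4191 (chr11:68209364-68400823, minus strand). The highest library stood 1.17-fold above the lowest for Ntn4 and 1.10-fold for Ntn1. Small as they were, these differences went beyond the sampling of reads (chi-square adjusted p = 4.42e-10 for Ntn4 and 5.96e-10 for Ntn1). Per kilobase Ntn4 stood at 749.8 ± 60.4 and Ntn1 at 645 ± 35.4 (SD, n = 3), and their ranges did not overlap. Against the median gene the difference was 3.38 ± 0.08 (log2, SE; limma adjusted p = 2.42e-09) for Ntn4 and 3.17 ± 0.07 (adjusted p = 2.62e-09) for Ntn1, ranks 688 and 861 among the genes tested.

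The netrin receptors stood far lower. Unc5b, a repulsive netrin receptor with roles in vessels, was the highest, with normalized counts of 163, 179 and 157 and a level of 26.6 ± 1.81 per kilobase (chr10:60762593-60831581, minus strand). Unc5c had 61.0, 91.0 and 105, and was lowest in replicate 1. Unc5a and Unc5d had means of 18.5 and 29.4, and the ranges of Unc5c, Unc5a and Unc5d overlapped from one to the next per kilobase. Dcc, the receptor that mediates attraction, had 12, 21 and 5 reads in replicates 1, 2 and 3, a mean normalized count of 8.55. All 4 Unc5 genes lay below the median gene, at log2 differences from -1.43 (Unc5b) to -4.46 (Unc5d). Summed per kilobase, the 2 netrins came to 1395 ± 91.2 and the 5 receptors to 39.3 ± 2.00, a log2 difference of 5.15 ± 0.12 (SD, n = 3), or 35.5-fold, with the ligands higher in 3 of 3 libraries. Neo1, which encodes another netrin-binding receptor and lies outside the naming rule, is not in the receptor sum. At 305 per kilobase it stood above the 39.3 of those 5 receptors together. Ntn4 made up 53.7% of the netrin sum.

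Among receptors the plexins dominated. Plxnb2, a receptor for class 4 semaphorins with known roles in neural progenitors and glia, had normalized counts of 13280, 12236 and 11081 in replicates 1, 2 and 3 (chr15:89155549-89180788, minus strand). It was the highest member, 22-fold above the median gene per kilobase (4.46 ± 0.08, log2, SE; limma adjusted p = 1.06e-09) and rank 265 of the genes tested. Plxnb1, the receptor for Sema4d, had 6618, 6740 and 5259, with replicate 3 lowest (chr9:109095389-109119917, plus strand). It stood 8.97-fold above the median gene (3.17 ± 0.09; adjusted p = 8.2e-09). Plxna1, a partner of neuropilins for secreted semaphorins, was the only other plexin above the median gene, at 162 ± 8.79 per kilobase.

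The other 6 plexins lay below the median gene. Plxna2, Plxna3, Plxnc1 and Plxnd1 stood between 45.3 and 60.5 per kilobase, and the ranges of Plxna3, Plxnc1 and Plxnd1 overlapped from one to the next. Plxna2's call was the weakest of all (limma adjusted p = 0.0288) and ended when any 1 library was left out (adjusted p = 0.0530 to 0.0974). Plxna4 stood at 21.8 and Plxnb3 at 7.67 ± 2.97, the lowest plexin. Plxna4os1, transcribed from the strand opposite Plxna4 and inside its span (chr6:32511073-32515576, plus strand), shares no exon with it and had normalized counts of 13.0, 8.96 and 21.5. Of the summed plexin level, 2622 ± 236 per kilobase, Plxnb2 made up 60.3% ± 1.31 (SD, n = 3) and both Plxnb2 and Plxnb1 together 84.9%.

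The neuropilins, coreceptors for secreted semaphorins and for vascular growth factor, were steady between libraries. Nrp1 had normalized counts of 1129, 1154 and 1106, and Nrp2 had 600.3, 575 and 538. No overlap was seen between the 2 genes per kilobase, at 115 ± 2.44 and 48.2 ± 2.64. Nrp1 lay above the median gene (0.69 ± 0.08; limma adjusted p = 3.69e-05) and Nrp2 below it (-0.57 ± 0.10; adjusted p = 0.000485), a call that ended with the length of the longest transcript (0.0535).

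Of the semaphorins that these receptors bind, the secreted class 3 was led by Sema3b and Sema3c. Sema3b had normalized counts of 1321, 1043 and 1074 and was highest in replicate 1, and Sema3c had 1231, 1373 and 1476 and was lowest there. Per kilobase they stood at 240 ± 31.9 and 190 ± 17.2, and together made up 81.3% of the class. Sema3f, a repellent that acts mainly through Nrp2, lay at the median gene with no call (0.18 ± 0.10; limma adjusted p = 0.100), and it was called above without replicate 3 (adjusted p = 0.0181), with the length of the longest transcript (0.00720) and without division by length (0.0125). Sema3e, a ligand of Plxnd1, Sema3d and Sema3a, the classical growth cone collapsing factor, lay below it, and Sema3g was under the limit. Sema3a had 17, 46 and 4 reads in replicates 1, 2 and 3 and was the lowest member tested per kilobase.

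The membrane-bound semaphorins of classes 4 to 7 were spread more evenly, with the 2 highest making up 49.8% of their sum. Sema6d, a transmembrane ligand of Plxna1, had normalized counts of 2323, 2113 and 2100, and Sema5b, a transmembrane repellent, had 1319, 1384 and 1248. They stood at 206 ± 11.9 and 186 ± 9.61 per kilobase. Sema4d, the ligand of Plxnb1, was the third above the median gene, at 97.8 ± 5.84. Sema4b, Sema6a and Sema4c had no call and lay at 63.4 to 76.2 per kilobase, where the range of Sema6a overlapped those of both others. Sema4c was called below the median gene with the length of the longest transcript (limma adjusted p = 0.00448). Sema7a, which is anchored by a lipid, Sema4g, Sema6b, Sema5a and Sema4a lay below. All semaphorins together came to 1318 ± 50.9 per kilobase and the plexins to 2622 ± 236. The plexins were thus 1.98-fold higher (log2 difference of ligands over receptors -0.99 ± 0.09, SD, n = 3) in 3 of 3 libraries. The neuropilins, at 164 ± 4.51 together, are not in the plexin sum.

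In the ephrin system the B class of ligands exceeded the A class. Efnb1, a transmembrane ephrin, had normalized counts of 695, 789 and 652 in replicates 1, 2 and 3 (chrX:99136130-99148991, plus strand). Efnb2, which marks arteries and also acts in neural tissue, had 1076, 1194 and 1224. Both lay above the median gene, at 206 ± 20.3 and 170 ± 11.4 per kilobase with ranges that did not overlap. Their order turned with the length of the longest transcript, which placed Efnb1 at 1.15 and Efnb2 at 1.3 (log2). Efnb3 was lower at 25.5. The lipid-anchored ephrin-A genes were led by Efna4, with 111, 128 and 122, and Efna5, with 225, 234 and 320.5; their per-kilobase ranges overlapped and neither had a call, though Efna5 was called below the median gene without replicate 3 (limma adjusted p = 0.0146). With the length of the longest transcript both were called below it (-0.38, adjusted p = 0.00458, and -0.62, adjusted p = 0.00119, limma). Efna1 and Efna2 lay below the median gene. The 3 ephrin-B genes summed to 402 ± 20.5 per kilobase and the 5 ephrin-A genes to 172 ± 13.5.

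Of the Eph receptors, Epha4 and Ephb2 led their classes. Epha4, which binds both ephrin classes, had normalized counts of 1105, 1165 and 1178 and made up 60.8% ± 1.90 of the EphA sum. Epha2, the second of the class per kilobase of all exons (50.9 ± 7.09), had 268, 243 and 202. Epha5, whose exons are longer, had a higher mean count (528) and, with the length of the longest transcript, also the higher position (-0.45 against -0.70 for Epha2, log2). Epha4 was the only EphA gene above the median gene (0.99 ± 0.08; limma adjusted p = 2.64e-06), while Epha2, Epha5, Epha3, Epha7 and Epha6 lay below it. Ephb2 had 1633, 1570 and 1339, and Ephb4, the main partner of Efnb2 in vessels, had 491, 460 and 392. Both were lowest in replicate 3 and both lay above the median gene. The call of Ephb4 ended with the length of the longest transcript (limma adjusted p = 0.519). Ephb6, whose kinase domain is inactive, Ephb3 and Ephb1 lay below, and Ephb6's call ended without replicate 3 (adjusted p = 0.0551). Summed per kilobase, ephrins came to 574 ± 28.8 and Eph receptors to 557 ± 39.6, a log2 difference of 0.04 ± 0.14 (SD, n = 3) that was positive in 2 of 3 libraries and smaller than its spread.

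The Slit and Robo genes were lower. Slit2, a secreted repellent, had normalized counts of 1732, 1867 and 2016, and Slit3 had 276, 354 and 329. Slit2 lay at the median gene per kilobase (0.04 ± 0.09; limma adjusted p = 0.709), a placement that depends on its exon length: 25433 bases over all annotated exons and 9960 in the longest transcript, with which it lay 0.93 above. Robo2, the higher of the receptors, had 646, 734 and 664, and Robo1 had 182, 170 and 126; both lay below the median gene. Slit1 was near the limit with 21, 35 and 5 reads, and Robo3 and the endothelial Robo4 were under it. Slits summed to 128 ± 10.4 per kilobase and Robo receptors to 50.4 ± 3.45, a log2 difference of 1.35 ± 0.15 (SD, n = 3), with Slits higher in 3 of 3 libraries.

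**Figure D2:**
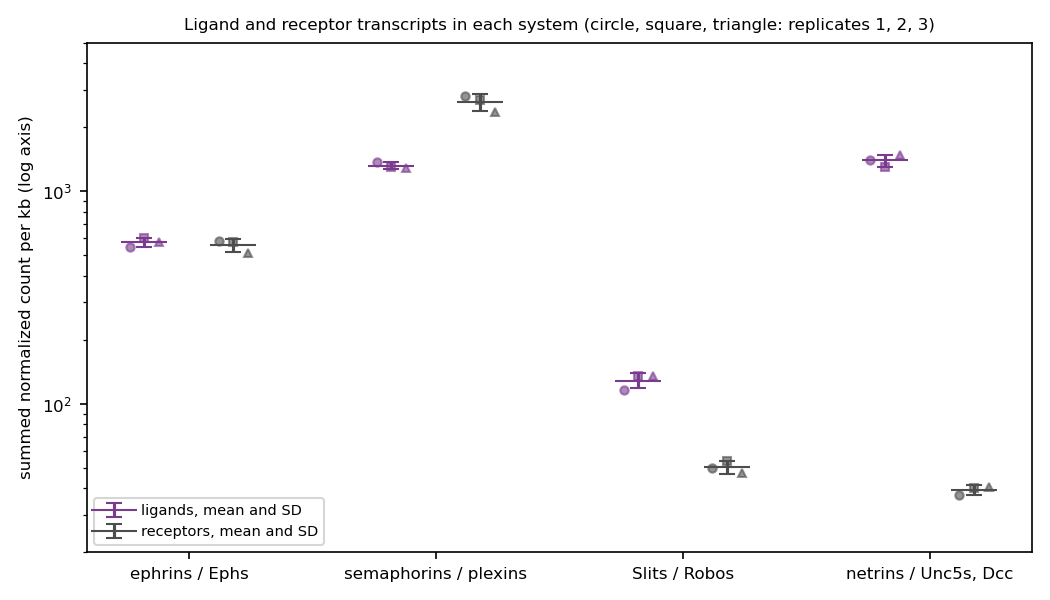
Summed normalized count per kilobase of ligands and of receptors (vertical log axis) in the ephrin, semaphorin, Slit and netrin systems, 1 symbol per replicate. Ligands and receptors lay together in the ephrin system, receptors were 1.98-fold higher for semaphorins, and ligands were 2.55-fold higher for Slits and 35.5-fold higher for netrins. The semaphorin receptors summed are the plexins, without the neuropilins. The netrin receptors summed are the Unc5 genes and Dcc, without Neo1, which alone stood above their sum.

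The ligand and receptor sums differed in direction from system to system, with the netrin system the most one-sided among the genes summed, which leave out Neo1. The sums take genes by family name, are descriptions of RNA per kilobase and carry no test. Within families the leading gene took from 26.2% ± 0.677 (Sema6d) to 79.7% ± 3.51 (Robo2) of the sum. Over 54 pairs of neighbours in the order of levels within a family, the ranges over libraries were apart for 41 and overlapped for 13, so most of the order was the same in the 3 libraries.

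**Figure D3:**
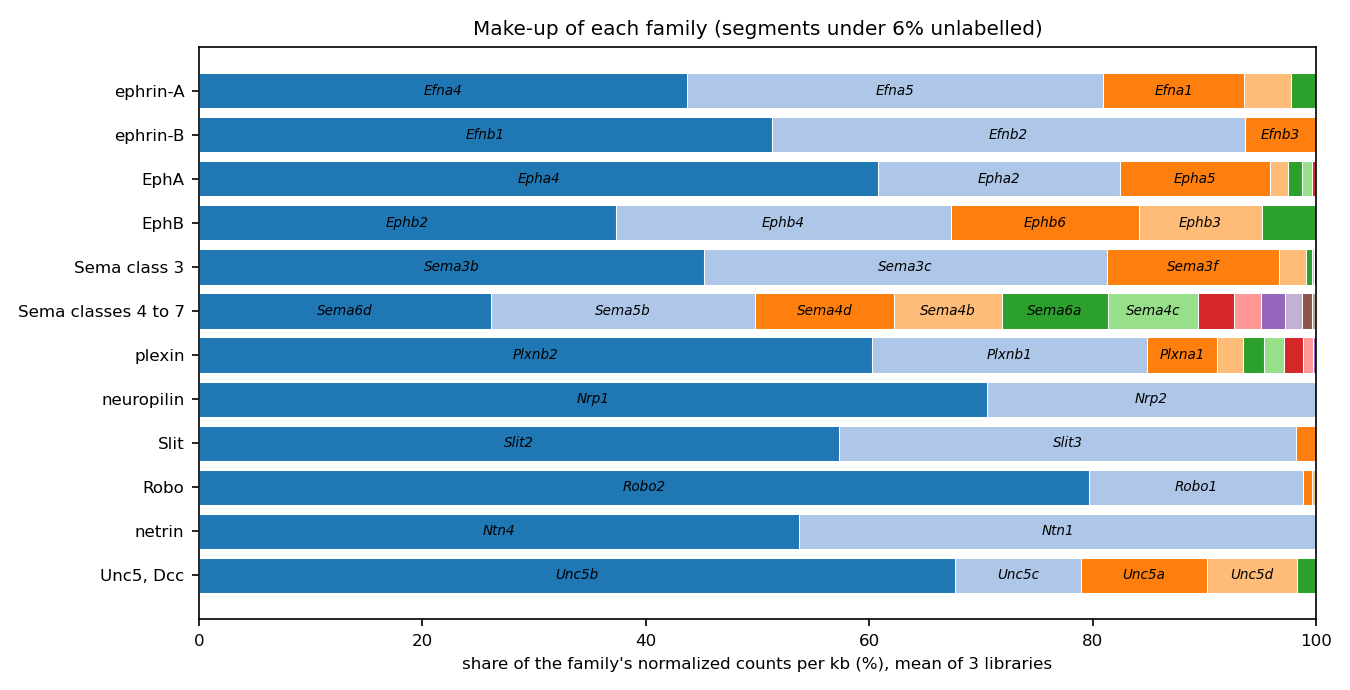
Share of each family's summed level per kilobase taken by its members (horizontal axis, percent, mean of 3 libraries). Plxnb2 made up 60.3% of the plexin sum and Robo2 79.7% of the Robo sum, while Sema6d, the leader of the membrane-bound semaphorins, made up 26.2%.

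Reads of 35 of the 58 members (60.3%) varied over the 3 libraries beyond the sampling of reads (chi-square test at an adjusted p under 0.05), against 55.4% of 13941 genes, so the members' share is near that of other genes. Most differences were small. Over the 41 members that reached a mean of 100, the median SD of log2 values was 0.13, against 0.14 over all such genes, and it reached 0.3 in 1 member, Ephb1, against 8.54% of genes. Ephb1, an Eph receptor of neurons and progenitors, had normalized counts of 88.7, 140 and 96.9, highest in replicate 2 (chi-square adjusted p = 0.000159; 0.698 without that library).

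Of the 35 members called, 14 had a highest library at least 1.3-fold above the lowest, a limit chosen after the values were seen. They were the ephrins Efna1, Efna2 and Efna5, the receptors Epha2, Ephb1, Ephb3 and Ephb6, the semaphorins Sema3a and Sema7a, the plexins Plxna4 and Plxnb3, Robo1, Unc5c and Plxna4os1. Plxnb3, a plexin known from oligodendrocytes, had 61.0, 60.9 and 27.5, low in replicate 3 alone (adjusted p = 0.00273, chi-square test; 0.947 without that library). Efna5 had its highest value in replicate 3 (adjusted p = 7.11e-05, chi-square test; 0.833 without it), and Unc5c its lowest in replicate 1 (0.00433; 0.386 without it). Each of the 14 lost its call when at least 1 of the libraries was left out.

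**Figure D4:**
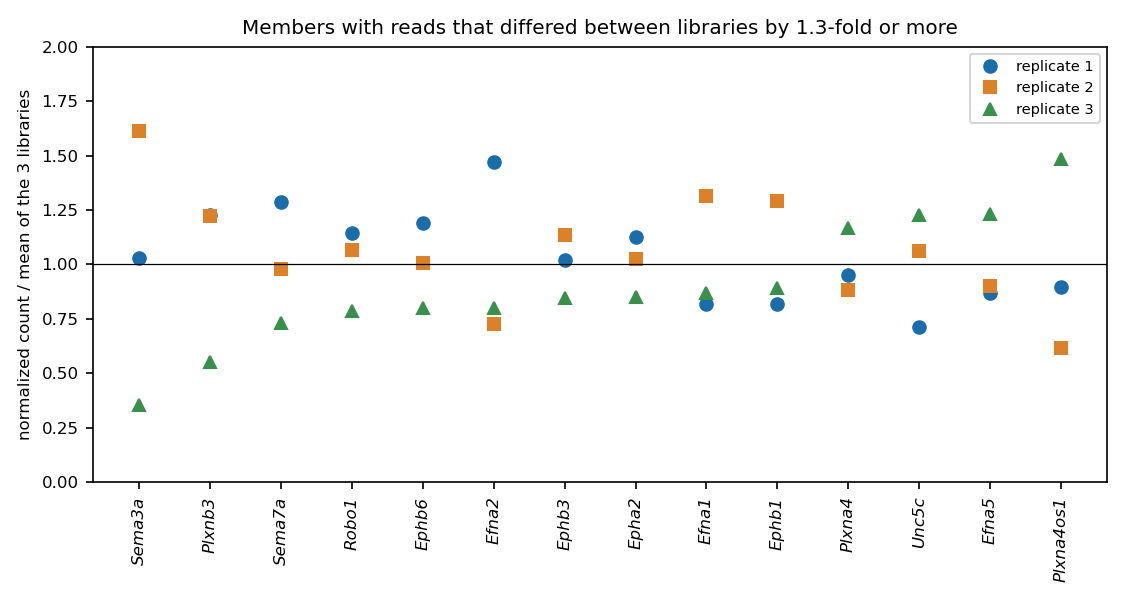
Normalized count in each replicate divided by the member's mean over the 3 libraries (vertical axis), for the 14 members called between libraries with a highest value at least 1.3-fold above the lowest. Plxnb3 and Sema3a were low in replicate 3, Efna5 was high there, and Unc5c was low in replicate 1.

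Replicate 3 was the lowest library for 18 of the 35 members called (51.4%), replicate 1 for 10 (28.6%) and replicate 2 for 7 (20%), against 36.9%, 35.9% and 27.2% of all genes called. Plxnb2, Plxnb1, Ephb2, Ephb4 and Efnb1 were among the 18. The summed astrocyte markers were lowest in replicate 3 as well, at 141354, 147414 and 125160 in replicates 1, 2 and 3, and so were the microglial markers, at 31998.5, 25349 and 22623, while the ependymal markers were lowest in replicate 2, at 14536, 10553 and 12563. Such sums are carried by the highest genes, and not every marker followed them. Of the astrocyte markers, Glul and Aqp4 were lowest in replicate 1 and Sox9 in replicate 2. Of the microglial markers, Ctss and Aif1 were lowest in replicate 2. The other markers of these 2 lists were lowest in replicate 3. Replicate 3 was also the shallowest library. The 3 X-linked members, Efnb1, Plxna3 and Plxnb3, were lowest there, and Xist, the RNA of the inactive X chromosome, had normalized counts of 3000.5, 0.472 and 4.78. Xist was thus high in replicate 1 alone, and low in replicate 2 as well as in replicate 3. The part of cell make-up, of depth and of the sex of the pups in these differences was not tested.

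Other genes of these pathways, outside the naming rule, were mostly expressed, at levels that differed from group to group. The 102 genes take in 23 other ligands and coreceptors and 10 proteases beside the genes that act inside the cell. Of the 102, 98 (96.1%) had a mean of 10 or more, against 71.6% of all rows. Of these, 58 (59.2%) lay above the median gene and 32 (32.7%) below it, against 45.5% and 44.9% of all genes tested, and 8 had no call (limma, adjusted p under 0.05), with a median of 0.83 (log2). All 12 small GTPases lay above it, led by Cdc42, Rac1 and Rras, switches of the actin cytoskeleton and of plexin signalling. Of 23 cytoskeletal effectors tested 16 were above, led by the actin-severing Cfl1 and Cfl2 and the actin regulator Vasp, and 7 below, with Ablim3 under the limit. The 33 genes that act close to the receptors took in adaptors, kinases, exchange factors and GTPase-activating proteins. Of these 33, 16 were above, led by Gipc1, Crk and the Slit-Robo GTPase-activating protein Srgap3, and 11 below. The 48.5% above is near the share of all genes. Of 9 proteases tested 8 were above, led by Ncstn and by Adam10, which sheds ephrins, and 1 below, with Mmp9 under the limit. The other ligands and coreceptors ran lower, with 6 of 21 above, led by Sdc3, Lrig1 and Neo1, and 13 below, and L1cam and Cntn2 under the limit.

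Exons of 5 members overlapped another gene on the opposite strand by more than 5% of their length: Efna3 with Gm15998 (14.1%), Plxna1 with Gm26811 (10.7%), Efna4 with 4731419I09Rik (10.5%), Sema4c with D430040D24Rik (7.27%) and Epha1 with Zyx (6.01%). The library kit keeps strand, but the counting setting is not given in the sources used here, so reads of these pairs may not be separated.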

How the data were processed

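Poly(A) RNA of 3 cultures was sequenced with a stranded kit, per the labels' protocols. The deposited signal values are the authors' normalized read counts, made with DESeq2 on genome build mm10, per the submitters' processing notes. For the aligner, counter, strand setting and annotation release, the name was not given in the sources used here. Each read adds a fixed step to a value (0.813, 0.472 and 1.20 in replicates 1, 2 and 3), which gave back whole reads for 100% of values within 0.05 reads. All libraries belong to 1 group, so p-values measure the spread between these libraries only. Exon lengths came from GENCODE vM21 on the same build, matched for 19366 rows (99.5%).

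Position against the median gene was tested with an intercept-only limma model (3.58.1, R 4.3.3, trended prior, two-sided) on log2(normalized count + 1) minus log2 of exon kilobases and minus the library median, over 13897 genes whose mean reached 10. Reads were compared between libraries by chi-square against the reads that library totals predict. This took genes whose mean reached 10 and that had at least 30 reads in all. Both were adjusted by Benjamini-Hochberg over all genes tested. edgeR's quasi-likelihood test (4.0.16) on recovered reads was an alternative: it called 12611 of 13897 genes, 6377 above and 6234 below, and 51 members, all of them called by limma too. Sums, shares and the order within families are descriptions. Procedures were tested on simulated data.

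Named in full are the 2 highest members of each family per kilobase, members with an SD of log2 values of 0.3 or more at a mean of 100 or more, and exceptions. Of each pathway list the 3 highest and those under 10 are named, except that 1 of these genes is not reported here. The members and lists were chosen with earlier results of these data known. Protein sequences were not analysed here. Python 3.11.15 with pandas 2.3.3 and matplotlib 3.10.9 was used.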

Additional observations from a re-analysis of the deposited data

How the results depend on the processing

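No paired analysis was possible because the libraries form a single group. Of the 51 called placements against the median gene, 35 kept direction and call under every alternative in which they were tested. Changing which genes set the median moved all members tested alike, by 0.72 (log2) with genes of a mean of 1 or more and by -0.61 with 100 or more. With the first, 26 of 66 members lay above it in place of 16 of 58. Efna5 (0.56), Epha2 (0.23), Ephb6 (0.32), Sema4c (0.55), Plxna2 (0.48), Plxna3 (0.21), Plxnc1 (0.11), Plxnd1 (0.061), Nrp2 (0.15) and Slit3 (0.28) turned to positive log2 values. With the second, Efna4 (-0.53), Ephb4 (-0.18), Sema3f (-0.43), Sema4d (-0.16), Sema4b (-0.52), Sema6a (-0.55) and Slit2 (-0.57) turned negative. Length moved single members further: without division by it, Slit2 was at 2.43, and Efna4 (-1.52), Epha5 (0.60), Plxna2 (1.58), Plxna3 (0.19), Plxnc1 (0.18), Nrp2 (0.72) and Robo2 (0.97) reversed. With the longest transcript as length, Efna4 (-0.38), Sema6a (-0.035) and the ephrin system (-0.076) reversed, and the log2 difference of ligands over receptors moved to -0.66 for semaphorins and 4.99 for netrins. Leaving out 1 library at a time gave -0.020 to 0.12 for the ephrin system and 18 to 22 members called between libraries, and Slit2 ran from -0.016 without replicate 3 to 0.079 without replicate 1. Leaving out replicate 3 also ended the call of Ephb6. Runs without a library hold fewer libraries and fewer reads, and the part of either was not tested. Unmoderated variances ended the calls of Epha2, Ephb4, Ephb6, Plxna3 and Slit3. Causes of these changes were not tested. The count of members detected ran from 40 to 66 with the threshold. Depth limits the 9 members under 10, where 1 read is worth 0.472 to 1.20.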
